A study of Mus musculus with 6 samples.

Results

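Transcripts of 8 inflammasome genes were examined among the 18477 genes measured in mouse colon. They were taken by gene symbol, and all 8 passed the filter on low counts. They comprise 4 sensors (*Nlrp3*, *Nlrp6*, *Nlrc4* and *Aim2*), 1 adaptor (*Pycard*, which encodes ASC), 2 caspases (*Casp1* and *Casp4*) and 1 gasdermin (*Gsdmd*). Colon tissue came from young adult male C57BL/6 mice. All had colitis induced by dextran sulfate sodium (DSS) in the drinking water, a chemical that injures the colon epithelium. Mice of the DSS group (n = 3) also received PBS by gavage, and those of the DSS+BV group (n = 3) received the gut bacterium *Bacteroides vulgatus*. Each library was made from 1 mouse, and libraries from mice without DSS were not analysed here.

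An inflammasome is a complex in which a sensor of infection or cell damage recruits ASC and activates caspase-1. Caspase-1 matures the cytokines IL-1β and IL-18 and cleaves gasdermin D, whose fragments form pores in the plasma membrane and cause pyroptosis. NLRP3 is best known from macrophages and other myeloid cells, whereas NLRP6 is abundant in the intestinal epithelium. Caspase-11, the product of mouse *Casp4*, binds bacterial lipopolysaccharide in the cytosol and cleaves gasdermin D without caspase-1. Activation takes place largely at the protein level, by assembly and cleavage, which transcript counts do not measure.

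None of the 8 genes passed the threshold between the groups. The means of *Nlrp3*, *Casp4* and *Gsdmd* were lower in the DSS+BV group and those of the other 5 genes were higher. The threshold was an adjusted p-value under 0.05 with an absolute log2 fold change over 1. With edgeR, 0 members were called lower and 0 higher, where 0.0892% of all 14579 tested genes were called lower and 0.00% higher. DESeq2 also called 0 members, against 1.78% of all genes lower and 0.291% higher. At an unadjusted p-value under 0.05, 1 member (*Casp4*) was lower, beside 9.12% of all genes, and 1 (*Nlrp6*) was higher, beside 3.40%. The median log2 fold change of the members, DSS+BV against DSS, was 0.18, and that of all tested genes was -0.01. The groups did not overlap for *Casp4* (lower) and *Nlrc4* (higher), 2 of 8 genes, which is to be read against 11.3% of all genes lower and 6.37% higher without overlap. Since these are whole-tissue libraries, fewer cells of a type and less RNA per cell cannot be told apart.

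**Figure D1:**
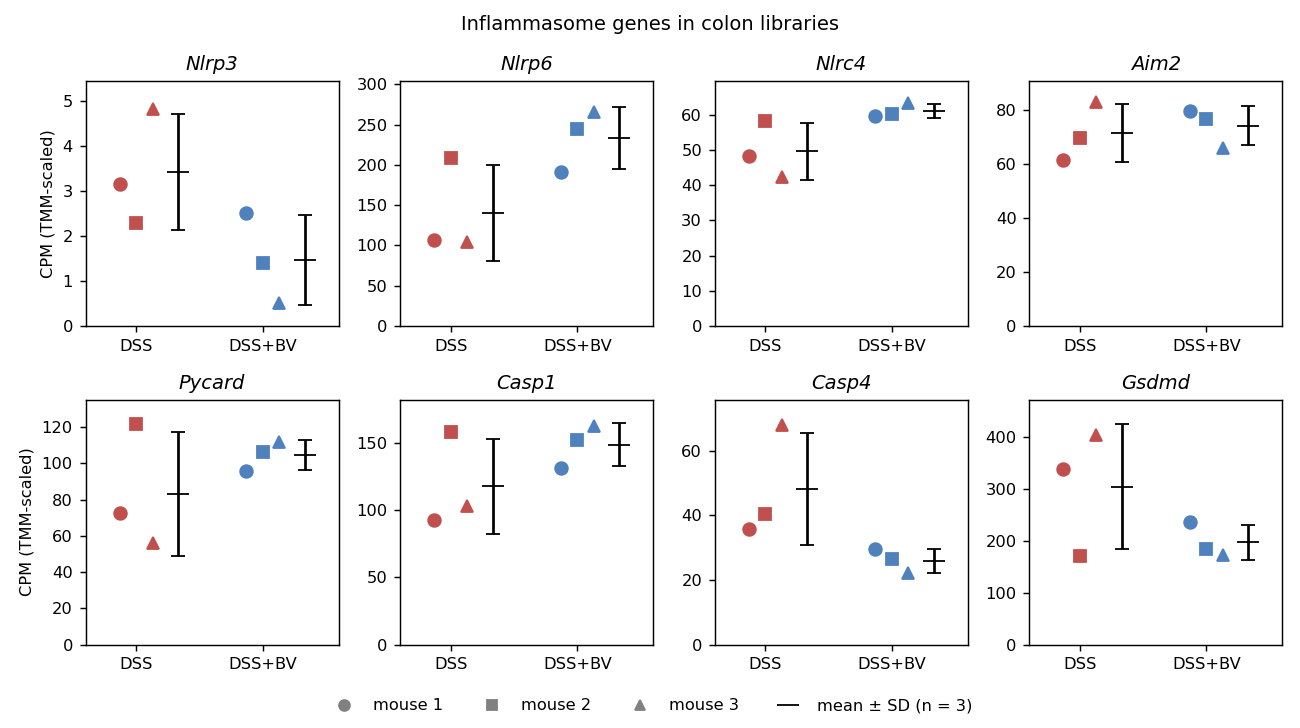
Level of each of the 8 genes in the 6 libraries, in TMM-scaled CPM (y axis from 0), with points for single mice, a different mouse for each point, and bars for the mean ± SD (n = 3 per group). The DSS+BV points of *Casp4* lie below all DSS points and those of *Nlrc4* above them, and the groups of the other 6 genes overlap.

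*Nlrp3* encodes the sensor that responds to membrane damage and potassium efflux. It lies on chromosome 11 (59541569 to 59566955 of GRCm38.p6, plus strand). Its level was 3.17, 2.30 and 4.83 CPM in DSS mice 1, 2 and 3, and 2.51, 1.40 and 0.506 CPM in DSS+BV mice 1, 2 and 3. CPM expresses a count relative to the TMM-scaled total of its library. DSS+BV mouse 1 was above DSS mouse 2, so the groups overlapped. Mean levels were 3.44 ± 1.29 (DSS) and 1.47 ± 1.002 CPM (DSS+BV; SD, n = 3). The log2 fold change was -1.22 (standard error 0.592, edgeR adjusted p = 0.454). These values rest on few reads, namely 53, 37 and 83 in the DSS mice and 38, 22 and 8 in the DSS+BV mice. The exact Poisson 95% intervals of the 8 and 22 reads in the 2 lowest libraries are 3.45 to 15.8 and 13.8 to 33.3. They cover counting error only. That they overlap is not a test of whether the 2 counts differ, and no such test was run. Counting error would give a coefficient of variation of 21.0% in the DSS+BV group, and the mice varied by 68.1%.

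*Nlrp6* encodes the epithelial sensor, which has been studied for its part in mucus secretion and in the response to microbial products. It lies on chromosome 7 (140920902 to 140929192, plus strand). Its level was 107.1, 208 and 105 CPM in DSS mice 1, 2 and 3, and 191, 244 and 265 CPM in DSS+BV mice 1, 2 and 3. DSS mouse 2 stood about as high as the DSS+BV mice and above DSS+BV mouse 1, so the groups overlapped, while the other 2 DSS mice were below all DSS+BV mice. The mean was 140.1 ± 59.2 and 233 ± 38.6 CPM in the DSS and DSS+BV groups (SD, n = 3). Its log2 fold change was 0.74, with a standard error of 0.304 (edgeR adjusted p = 0.396). With each library left out in turn it lay between 0.56 (without DSS mouse 3) and 1.15 (without DSS mouse 2).

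*Nlrc4* encodes the sensor that, with NAIP proteins, responds to bacterial flagellin and secretion systems. It lies on chromosome 17 (74426255 to 74459144, minus strand). It measured 48.3, 58.3 and 42.2 CPM in the DSS mice and 59.6, 60.3 and 63.3 CPM in the DSS+BV mice. All DSS+BV mice were above all DSS mice, by a narrow gap between DSS mouse 2 and DSS+BV mouse 1. Its log2 fold change was 0.30 (standard error 0.150, edgeR adjusted p = 0.463). *Nlrc4* varied least among the DSS+BV mice, with a coefficient of variation of 3.28%, close to the 3.24% that counting error alone would give.

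*Aim2* encodes the sensor of cytosolic double-stranded DNA. Its level was 61.7, 69.7 and 83.0 CPM in the DSS mice and 79.9, 76.8 and 66.1 CPM in the DSS+BV mice. The groups overlapped throughout their range, and *Aim2* had the log2 fold change nearest to 0 of the 8 genes, at 0.06 (standard error 0.155, edgeR adjusted p = 0.904). In 1 library its expected count was not a whole number (1044.8), as RSEM gives when reads are divided between genes. The expected counts of the other 7 genes were whole in all libraries.

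*Pycard*, on chromosome 7 (127991373 to 127993867, minus strand), encodes ASC, which links NLRP3, AIM2 and NLRP6 to caspase-1. It measured 72.3, 122 and 55.9 CPM in the DSS mice and 95.9, 106 and 112 CPM in the DSS+BV mice. DSS mouse 2 was the highest of all 6 mice and the other 2 DSS mice were the lowest. The log2 fold change was 0.33 (standard error 0.283, edgeR adjusted p = 0.658), and it lay between 0.11 (without DSS mouse 3) and 0.72 (without DSS mouse 2) with each library left out in turn. The exons of *Pycard* overlap Gm45205 on the opposite strand. Whether reads were assigned by strand is not given in the sources used here, and without strand the reads of the pair cannot be told apart.

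The caspase genes *Casp1* and *Casp4* are neighbours on chromosome 9, on the plus strand, with 1567 bases between them. *Casp1*, at 5298517 to 5307281, encodes the caspase common to the canonical inflammasomes. Its level was 92.3, 158 and 103 CPM in the DSS mice and 131, 152 and 162 CPM in the DSS+BV mice. DSS mouse 2 again lay among the DSS+BV mice, and the other 2 DSS mice were below all of them. Its log2 fold change was 0.34, with a standard error of 0.226 (edgeR adjusted p = 0.573).

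*Casp4*, at 5308849 to 5336791, encodes the lipopolysaccharide-binding caspase-11. Its level was 35.7, 40.4 and 67.9 CPM in the DSS mice and 29.4, 26.4 and 22.1 CPM in the DSS+BV mice. All DSS+BV mice were below all DSS mice, and DSS mouse 3 stood apart from the other 2 of its group. The mean was 48.0 ± 17.4 and 26.0 ± 3.69 CPM (SD, n = 3), a ratio of 1.85 between DSS and DSS+BV in the fit. The log2 fold change was -0.89 (standard error 0.271), with an unadjusted p-value of 0.0146 and an edgeR adjusted p = 0.329. DESeq2 gave an adjusted p = 0.114. With 1 library left out it lay between -1.06 (without DSS mouse 1) and -0.55 (without DSS mouse 3).

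The sequences upstream of the start are shown for the sensor pair and for *Casp4*, the member with the smallest p-value. RefSeq promoters (GRCm38.p6) matched 7 of the 8 members, with 9 start sites. The 250 bases before each start were searched on both strands for the core of the interferon-stimulated response element (GAAA, any 2 bases, GAAA), the gamma-activated site TTCNNNGAA and the kB consensus. No window of the 7 genes held either of the first 2 motifs, which occur in 2.98% and 7.02% of 32851 promoters. The kB consensus, in 3.90% of promoters, was found before *Casp4*, in overlapping matches, and before 1 of 2 *Nlrp3* starts. The *Nlrp3* start with the match is the one shown, and the other held none. For the start shown, the bases that follow were not found unbroken near the beginning of an annotated transcript. For all other starts they were. A match is a description of the letters and not evidence of binding. Capitals mark the kB match, and each sequence ends where an annotated exon or the start site begins, at chr9:5308599-5308827 for *Casp4*, chr11:59541319-59541567 for *Nlrp3* and chr7:140920652-140920901 for *Nlrp6*, all on the plus strand.
Casp4: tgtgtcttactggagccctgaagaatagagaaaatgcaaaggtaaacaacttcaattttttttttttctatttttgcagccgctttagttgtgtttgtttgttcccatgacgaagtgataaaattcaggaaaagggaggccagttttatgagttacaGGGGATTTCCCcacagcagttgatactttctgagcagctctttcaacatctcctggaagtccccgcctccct
Nlrp3: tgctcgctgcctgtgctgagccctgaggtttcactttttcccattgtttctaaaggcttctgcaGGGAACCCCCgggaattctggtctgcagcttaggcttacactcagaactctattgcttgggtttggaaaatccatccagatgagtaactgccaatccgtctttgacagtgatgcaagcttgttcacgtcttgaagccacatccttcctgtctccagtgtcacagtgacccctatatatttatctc
Nlrp6: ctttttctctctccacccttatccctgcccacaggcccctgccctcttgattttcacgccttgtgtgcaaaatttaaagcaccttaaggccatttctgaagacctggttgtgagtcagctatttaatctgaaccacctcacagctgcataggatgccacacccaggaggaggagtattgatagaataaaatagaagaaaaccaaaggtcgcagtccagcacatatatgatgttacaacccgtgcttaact

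*Gsdmd* lies on chromosome 15 (75862144 to 75867408, plus strand) and encodes gasdermin D, the pore-forming substrate of both caspases. It measured 338, 171 and 404 CPM in the DSS mice and 236, 183 and 173 CPM in the DSS+BV mice. DSS mouse 2 had the lowest value of all 6 mice, whereas the other 2 DSS mice were above all DSS+BV mice. The log2 fold change was -0.62 (standard error 0.322, edgeR adjusted p = 0.476). It lay between -0.90 (without DSS mouse 2) and -0.37 (without DSS mouse 3) when single libraries were left out. *Gsdmd* and *Casp4* thus had lower means in the DSS+BV group, while the means of *Casp1* and *Pycard* were higher, and none of these genes was called.

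**Figure D2:**
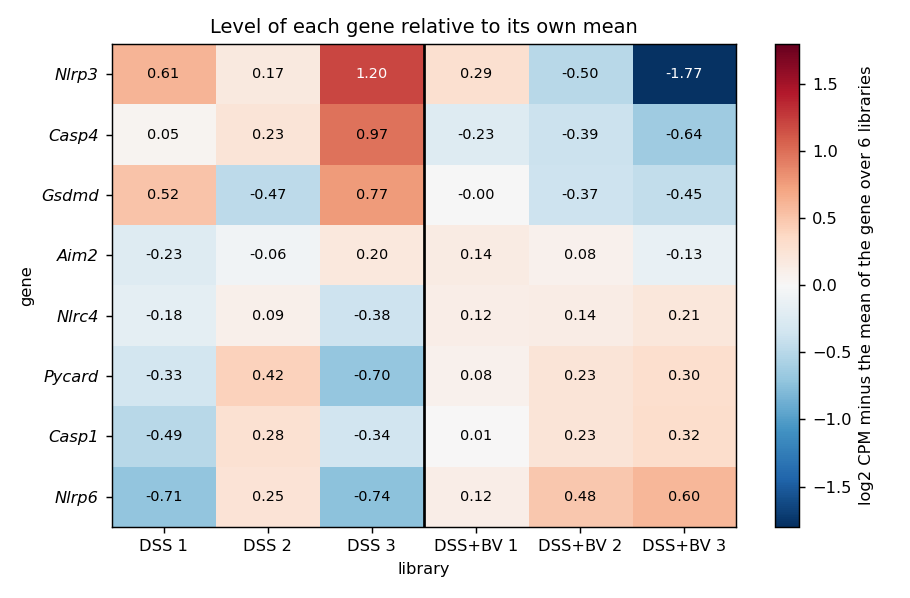
Log2 CPM (prior count 2) of each gene minus its own mean over the 6 libraries (colour and printed value), with genes in rows and libraries in columns and a line between the groups. *Nlrp3* has its lowest value, -1.77, in DSS+BV mouse 3 and its highest in DSS mouse 3, and in DSS mouse 2 the values of *Nlrp6*, *Nlrc4*, *Pycard*, *Casp1* and *Gsdmd* have the sign that the DSS+BV mice have.

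The 8 genes differed far more in abundance than between the groups. Levels were compared between genes as CPM per kb, over the exon length of 1 annotated transcript per gene, cut to the RefSeq bounds of the gene. In the DSS group, the order was *Gsdmd* at 169.8 ± 67.0 CPM per kb, *Casp1* at 78.5 ± 23.5, *Pycard* at 39.0 ± 16, *Casp4* at 33.5 ± 12.1, *Nlrp6* at 31.6 ± 13.3, *Aim2* at 25.2 ± 3.80, *Nlrc4* at 12.7 ± 2.08 and *Nlrp3* at 0.855 ± 0.320 (SD, n = 3). The ranges of *Gsdmd* and *Casp1* overlapped among the DSS mice, as did those of neighbours from *Pycard* to *Aim2*, whereas *Nlrc4* lay below *Aim2* and *Nlrp3* below *Nlrc4* in every DSS mouse. In the DSS+BV group, *Nlrp6* (52.6 ± 8.69 CPM per kb) and *Pycard* (49.0 ± 3.77) followed *Casp1* (99.1 ± 10.7), and *Casp4* was at 18.1 ± 2.57. *Nlrp3* remained the least abundant, at 0.366 ± 0.249 CPM per kb. The place of *Pycard* depends on this cut, since the whole length of the same transcript would give 21.9 CPM per kb in the DSS group. *Nlrc4* was also cut, and its whole transcript would give 10.5 CPM per kb.

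The myeloid sensor was set against the epithelial sensor within each library, which removes library scaling. The log2 ratio of *Nlrp3* to *Nlrp6* was -5.02, -6.43 and -4.40 in DSS mice 1, 2 and 3, and -6.18, -7.32 and -8.72 in DSS+BV mice 1, 2 and 3. DSS+BV mouse 1 had a higher ratio than DSS mouse 2, so the groups overlapped. The mean difference was -2.12 (exact two-sided permutation test, p = 0.2, n = 3 per group), where 0.1 is the smallest p-value this design allows. The remaining ratios between members were examined after their values had been seen. Of all 28 ratios, the DSS+BV mice had lower values without overlap in 1 and higher values in 7, and 20 overlapped. Over all pairs of tested genes, 18.0% of such ratios did not overlap. The smallest p-value adjusted over the 28 ratios was 0.35 (exact permutation test). With 0.1 as the smallest possible p-value, none could fall under 0.05.

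Of the 8 ratios without overlap, 5 have *Casp4* as the denominator, with *Nlrp6*, *Nlrc4*, *Aim2*, *Pycard* or *Casp1* above it. *Casp4* itself did not overlap between the groups, so these 5 are not separate observations. The log2 ratio of *Casp1* to its neighbour *Casp4* was 1.37, 1.96 and 0.59 in the DSS mice and 2.15, 2.52 and 2.87 in the DSS+BV mice, a mean difference of 1.21. Every DSS+BV mouse thus had more *Casp1* relative to *Casp4* than any DSS mouse. *Nlrp6* to *Pycard* and *Nlrp6* to *Casp1* were also higher without overlap, with mean log2 differences of 0.40 and 0.43. The ratio that was lower was *Nlrp3* to *Aim2*, with a mean log2 difference of -1.39.

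Marker genes of the cell types in which these sensors are best known were summed in the same libraries. The summed level of 15 macrophage and monocyte markers was 1053 to 2267 CPM in the DSS mice and 687 to 1564 CPM in the DSS+BV mice. The median log2 fold change of this list was -0.87, with 14 of 15 genes negative and 0 called by edgeR. At an unadjusted p-value under 0.05, 2 were lower, beside 9.12% of all tested genes. DESeq2 called 2 lower (*Mrc1* and *Cd163*, receptors of tissue macrophages). Over all genes, DESeq2 called 1.78% lower and edgeR 0.0892%. *Lyz2*, the most abundant of this list, had a log2 fold change of -0.48 with overlap. The summed level of 14 neutrophil markers was 278 to 441 CPM in the DSS mice and 116 to 308 CPM in the DSS+BV mice. Of the 11 neutrophil markers tested, edgeR called 5 lower (*S100a8*, *S100a9*, *Cxcr2*, *Mmp8* and *Retnlg*) and DESeq2 called these and *Csf3r*, *Ngp*, *Ltf*, *Fpr1* and *Fpr2*, with a list median of -3.61. *Elane*, a defining gene of neutrophil precursors, was at 0 in all libraries, and the most abundant of the list, *Cd177*, did not pass the test (log2 fold change 0.23). *Cd177* made up 98.9, 308 and 74.1 CPM of the sum in the DSS mice and 282, 99.4 and 183 CPM in the DSS+BV mice. Without it, in a sum added with the values known, the other 13 markers summed to 133 to 214 CPM in the DSS mice and 12.6 to 26.6 CPM in the DSS+BV mice, without overlap. The 15 epithelial markers summed to 14382 to 17003 CPM in the DSS mice and 21504 to 33179 CPM in the DSS+BV mice, without overlap. *Car1*, a carbonic anhydrase of colonocytes, made up 924, 10453 and 8702 CPM of this sum in DSS+BV mice 1, 2 and 3. All 15 had positive log2 fold changes with a median of 0.35, and edgeR called 0. At an unadjusted p-value under 0.05, 5 were higher, beside 3.40% of all tested genes. DESeq2 called 1 higher (*Car1*), beside 0.291% of all genes. The most abundant of the epithelial list, *Krt8*, had a log2 fold change of 0.64 without overlap. The part of these marker levels in the member values was not tested, and the members are given relative to them next.

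Relative to the mean log2 CPM of the macrophage and monocyte markers, *Nlrp3* was -4.47, -4.31 and -4.30 in the DSS mice and -4.57, -4.30 and -5.52 in the DSS+BV mice. The groups overlapped, and the mean difference was -0.43 (exact permutation p = 0.4, n = 3 per group). Only DSS+BV mouse 3, the library with 8 *Nlrp3* reads, lay apart from the other 5 in this ratio. The edgeR log2 fold change of *Nlrp3* itself was -1.22, a different measure from the difference of log2 CPM. Relative to the epithelial markers the mean difference of *Nlrp3* was -1.84, without overlap (exact permutation p = 0.1). The epithelial marker mean was itself higher without overlap. It was 9.14, 9.45 and 9.37 log2 CPM in the DSS mice and 9.61, 10.1 and 9.80 in the DSS+BV mice. Subtracting it lowers the mean difference of every gene. How many of all tested genes would not overlap in this ratio was not computed. The separation is therefore not a result about *Nlrp3* alone. *Casp4* had a mean difference of 0.05 relative to macrophage and monocyte markers (exact permutation p = 0.8). Relative to epithelial markers it was -1.35, without overlap (exact permutation p = 0.1). *Casp4* itself was lower without overlap and the epithelial mean was higher, so this separation had to occur and is not a separate observation. *Gsdmd* gave 0.34 and -1.06 in the same ratios, and both overlapped.

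Neutrophil markers, which are also myeloid, were not used in such ratios. *Nlrp6* and the other 4 genes with positive log2 fold changes had higher differences relative to macrophage and monocyte markers than to the epithelial ones. This holds for every gene by construction, because the same 2 marker means were subtracted from each. The 2 differences of any gene are therefore apart by the same amount, which says nothing particular about these genes. Relative to macrophage and monocyte markers *Nlrp6* was 0.55, 2.11 and 0.10 in the DSS mice and 1.61, 3.02 and 3.20 in the DSS+BV mice, with a mean difference of 1.69 (exact permutation p = 0.2, n = 3 per group). Relative to epithelial markers its mean difference was 0.28 (exact permutation p = 0.4) with overlap. The mean differences of *Pycard*, *Casp1*, *Nlrc4* and *Aim2* relative to macrophage and monocyte markers lay between 0.95 (*Aim2*) and 1.29 (*Pycard*). Relative to epithelial markers they were -0.11, -0.15, -0.20 and -0.45, and the groups overlapped in all of these ratios. Over these 16 ratios the smallest adjusted p was 0.356 (exact permutation test). None could fall under 0.05, because 0.1 is the smallest p-value this design allows.

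**Figure D3:**
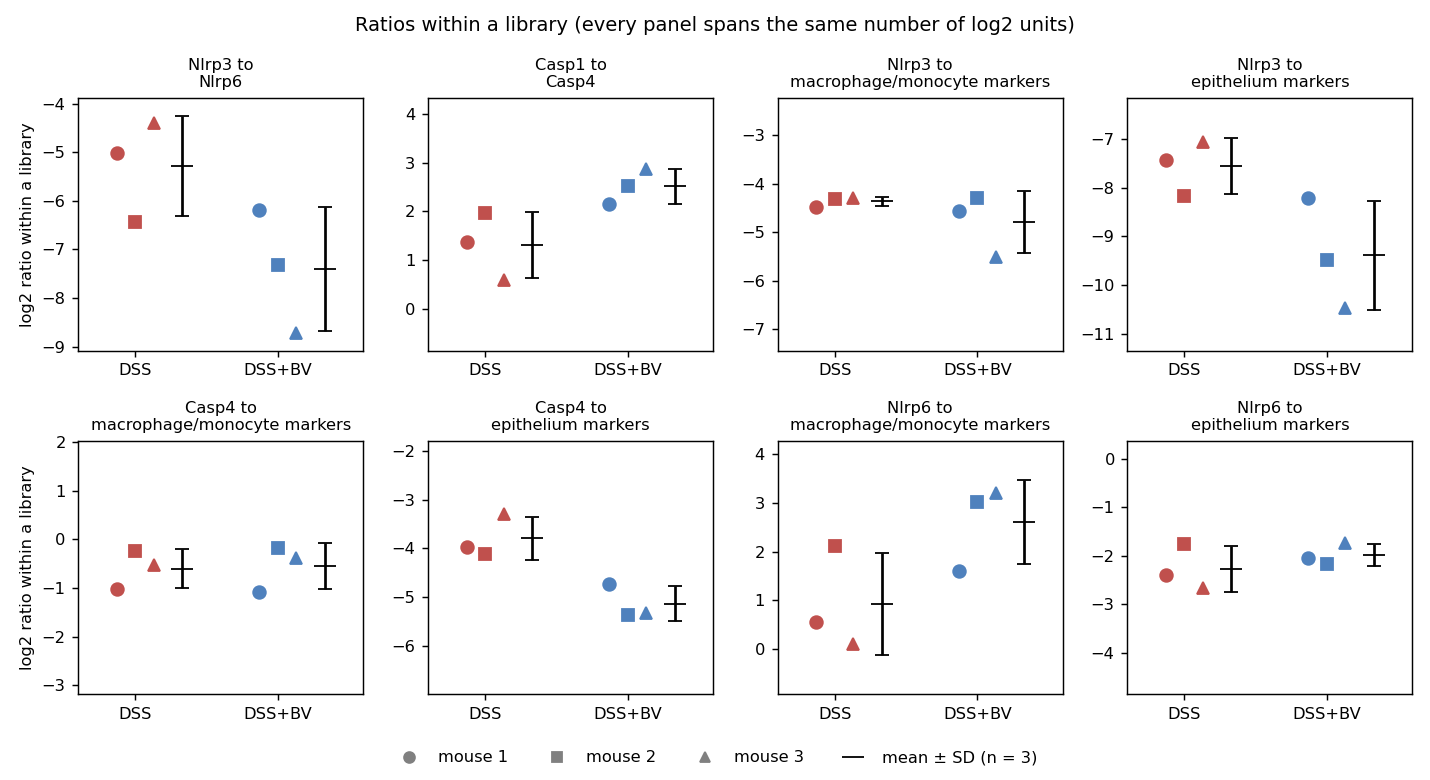
Log2 ratios within single libraries for 2 pairs of members and for *Nlrp3*, *Casp4* and *Nlrp6* relative to the mean log2 CPM of macrophage and monocyte or epithelial markers, with points for single mice and bars for the mean ± SD (n = 3 per group). *Casp1* to *Casp4*, *Nlrp3* to epithelium and *Casp4* to epithelium do not overlap between groups, with mean differences of 1.21, -1.84 and -1.35. *Casp4* alone and the epithelial marker mean alone do not overlap either, so these are not separate observations. The ratios of *Nlrp3* and *Casp4* to macrophage and monocyte markers differ by -0.43 and 0.05.

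The other marker lists are given for comparison. Their median log2 fold changes were -0.07 for goblet cells, -0.81 for B and plasma cells, -0.12 for T and NK cells, -0.72 for fibroblasts, -0.17 for smooth muscle and -0.55 for endothelium, with 0 genes called by edgeR in each. At an unadjusted p-value under 0.05, 5 fibroblast and 2 endothelial markers were lower, beside 9.12% of all tested genes. DESeq2 called 2 fibroblast markers lower (*Dcn* and *Pdpn*), beside 1.78% of all genes. The most abundant genes of these lists were *Muc2*, *Jchain*, *Cd4*, *Dcn*, *Myh11* and *Pecam1*, with log2 fold changes of 1.10, -0.77, 0.01, -1.09, -0.11 and -0.62.

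Beyond the 8 members, 57 genes of the pathway were listed in 4 groups, of which 56 were in the table and 54 were tested. With edgeR 0 of the 54 were called, 10 were lower and 4 higher at an unadjusted p-value under 0.05 (9.12% and 3.40% of all tested genes), and DESeq2 called 2 lower and 2 higher (1.78% and 0.291% of all genes). Their median log2 fold change was -0.17, with 36 negative and 18 positive. The groups did not overlap for 7 genes that were lower and 6 that were higher, beside 11.3% and 6.37% of all tested genes.

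Among the 18 other sensors and related NLR proteins, the median was -0.12. *Nlrp12*, an NLR protein of myeloid cells that restrains inflammatory signalling, had 10.84, 20.08 and 22.38 expected counts in the DSS mice and 1, 2 and 1 in the DSS+BV mice. It fell by the DESeq2 test (adjusted p = 0.0173) and did not pass with edgeR (log2 fold change -3.52, adjusted p = 0.137). *Nod2*, a sensor of bacterial muramyl dipeptide, was at 4.85, 5.16 and 5.77 CPM in the DSS mice and 9.37, 7.64 and 8.47 CPM in the DSS+BV mice, without overlap (log2 fold change 0.69, edgeR adjusted p = 0.329). Its relative *Nod1* had a log2 fold change of -0.42 and *Nlrx1*, a mitochondrial NLR protein, one of -0.54, both with overlap.

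Of the 14 upstream cofactors and guanylate-binding proteins, whose median was -0.12, *Panx1*, a channel that releases ATP, was at 20.0 to 20.6 CPM in the DSS mice and 25.2 to 40.8 CPM in the DSS+BV mice (log2 fold change 0.71, edgeR adjusted p = 0.314). *P2rx7*, the receptor for extracellular ATP upstream of NLRP3, had a log2 fold change of -0.57, with overlap. *Nek7*, a kinase that binds NLRP3, was lower in all DSS+BV mice than in any DSS mouse, with a log2 fold change of -0.42 (edgeR adjusted p = 0.385).

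The 13 tested genes among the other caspases, gasdermins and membrane rupture proteins had a median of 0.17. *Casp12*, a caspase of the inflammatory subfamily, resembled *Casp4* in size and direction, at 18.3, 25.2 and 37.8 CPM in the DSS mice and 16.4, 12.4 and 14.4 CPM in the DSS+BV mice (log2 fold change -0.91, edgeR adjusted p = 0.334). *Ninj1*, which ruptures the membrane after gasdermin pores have formed, had a log2 fold change of -0.54, with overlap. *Gsdmc2* and *Gsdmc3*, gasdermins expressed in the gut epithelium, rose by DESeq2 (adjusted p = 0.0103 and 0.00292), with edgeR log2 fold changes of 1.27 and 1.80 that did not pass (adjusted p = 0.280 and 0.249). *Gsdmc3* was at 38.6, 109 and 48.7 CPM in the DSS mice and 256, 265 and 160.5 CPM in the DSS+BV mice. Their expected counts and those of their relative *Gsdmc4* were not whole numbers, as RSEM gives when reads are divided between genes. The level of each gene is therefore uncertain. *Gsdmc4*, named with its values known, was at 628, 458 and 846 CPM in the DSS mice and 1617, 1515 and 345 CPM in the DSS+BV mice, with overlap (log2 fold change 0.85, edgeR adjusted p = 0.567). The 3 genes summed to 892, 882 and 1169 CPM in the DSS mice and 2517, 2705 and 904 CPM in the DSS+BV mice, and DSS+BV mouse 3 lay among the DSS mice in this sum, which was added with the values known.

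All 9 genes for substrate cytokines, their receptors and binding proteins had negative log2 fold changes, with a median of -0.70. Over all 14579 tested genes, 7501 were negative. At an unadjusted p-value under 0.05, 5 of the 9 were lower, beside 9.12% of all tested genes. *Il1b*, the IL-1β precursor cleaved by caspase-1, was at 23.2, 27.9 and 67.9 CPM in the DSS mice and 14.4, 21.0 and 4.05 CPM in the DSS+BV mice. These groups did not overlap, and the log2 fold change was -1.59 (standard error 0.655, edgeR adjusted p = 0.396). *Il1r2*, the decoy receptor for IL-1, fell by DESeq2 (adjusted p = 3.99e-08) but did not pass with edgeR (log2 fold change -2.53, adjusted p = 0.0865), and its signalling counterpart *Il1r1* had a log2 fold change of -0.51 without overlap (edgeR adjusted p = 0.300). *Il18rap*, a subunit of the IL-18 receptor, was at 5.75, 6.47 and 9.08 CPM in the DSS mice and 4.82, 4.08 and 4.55 CPM in the DSS+BV mice, also without overlap (log2 fold change -0.66, edgeR adjusted p = 0.388). *Il18*, named here with its values already known, measured 117, 108 and 144 CPM in the DSS mice and 122, 82.2 and 23.8 CPM in the DSS+BV mice, with overlap. DSS+BV mouse 3 was thus the lowest of the 6 mice for *Nlrp3*, *Il1b* and *Il18*.

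**Figure D4:**
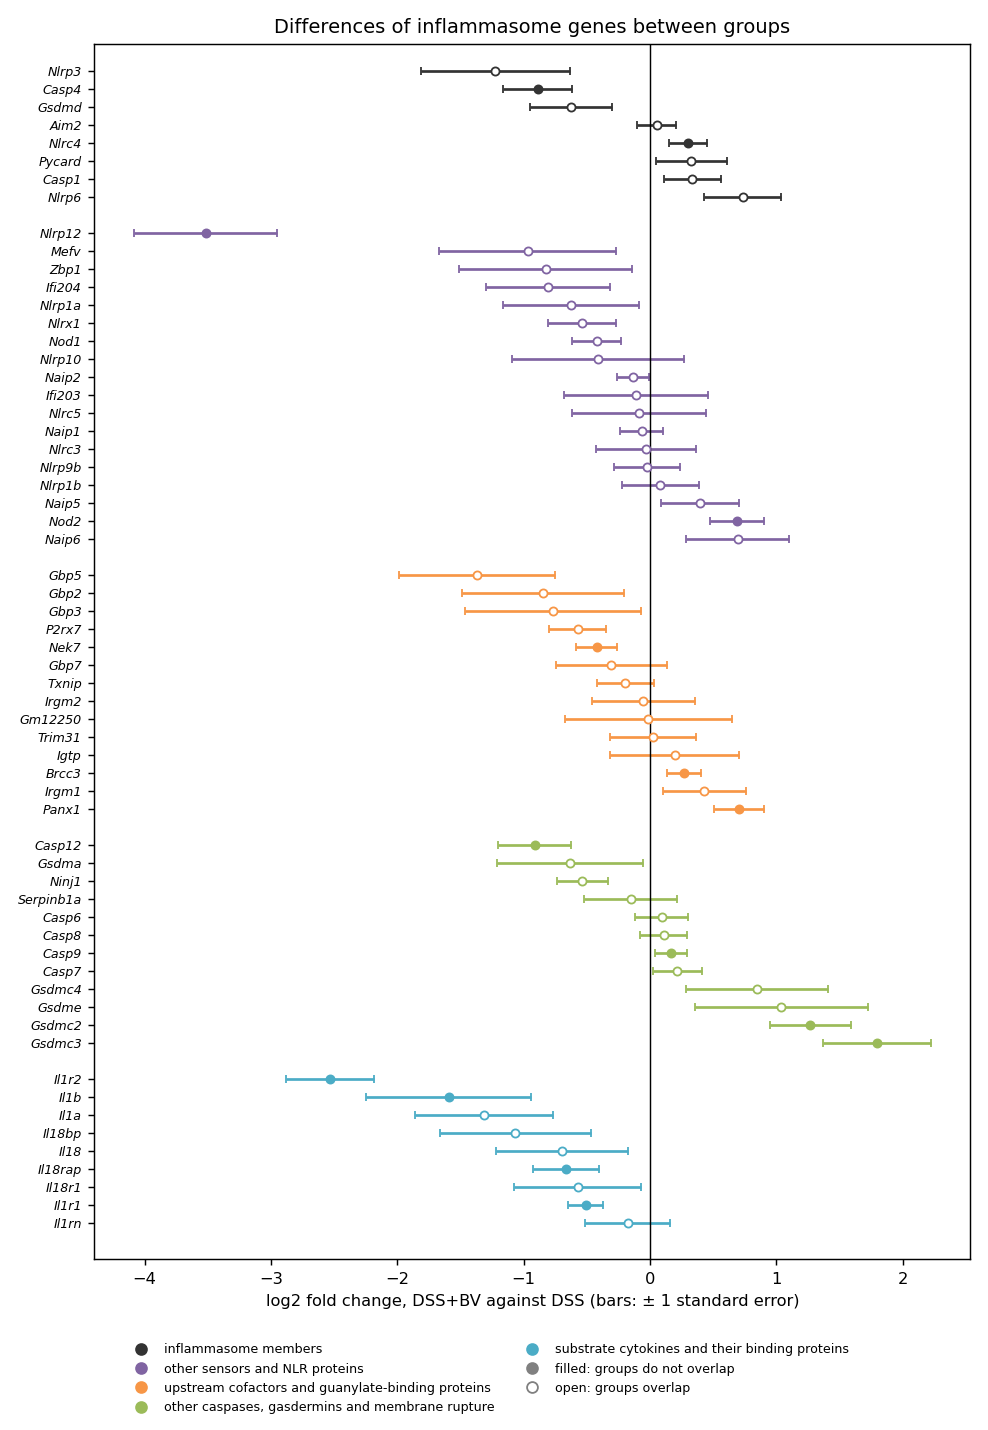
Log2 fold change (DSS+BV against DSS, x axis) of the 8 members and of tested genes in 4 other inflammasome lists, with bars for ± 1 standard error of the edgeR fit, filled points for genes whose groups do not overlap and open points for those that overlap. Members lie between -1.22 and 0.74, and all 9 genes for substrate cytokines, their receptors and binding proteins lie left of 0.

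The tested genes whose levels followed *Nlrp3* most closely over the 6 libraries were *Abcb1b*, *Adarb1* and *Card9*, with a mean absolute difference of 0.114, 0.117 and 0.118 in log2 CPM after each gene was centred on its own mean. *Nlrp3* itself spanned 2.98 on that scale. *Card9*, the least close of these genes, encodes an adaptor of myeloid cells. None of them is among the macrophage and monocyte markers used here. For *Nlrp6* they were *Prkaa2*, *Prkca* and *Slc30a4*, with mean absolute differences of 0.0365, 0.0660 and 0.0754 where *Nlrp6* spanned 1.34. These genes were picked from all tested genes for their likeness, which is therefore a description.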

How the data were processed

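Colon RNA of 6 mice was sequenced with a SMARTER mRNA-seq kit. The authors deposited RSEM expected counts per gene, not scaled between libraries. The submitters' processing notes name HISAT2 2.1.0, Bowtie2 2.2.5, RSEM 1.2.8 and GRCm38.p6, without their roles. Library totals were 15293276 to 17254343.

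After rounding, genes were filtered with filterByExpr (minimum count 10, minimum total 15) and scaled by TMM. The quasi-likelihood test of edgeR 4.0.16 was run in R 4.3.3, and p-values were adjusted by Benjamini-Hochberg over 14579 genes. DESeq2 1.42.0 was an alternative, and its percentages are over the 15805 genes with an adjusted p-value. Fits were first tested on simulated data. Ratios used log2 CPM (prior count 2) and exact permutation tests (scipy 1.17.1).

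Members and lists were chosen with earlier results of these data known. Named genes are all members, listed genes called by either tool, up to 3 more per list by p-value, called or most abundant markers, and 3 genes most like *Nlrp3* and *Nlrp6*. *Elane*, *Il18* and *Gsdmc4* were named outside this rule, with their values known. A fit without DSS mouse 2 and DSS+BV mouse 1 together was also run. It called *Nlrp6* higher and more genes in both directions, but its values are not given and support nothing, because these mice had been picked by the member levels under test. Chromosomal positions are those of RefSeq, and exon lengths are from GENCODE M21, cut to the RefSeq bounds. A listed gene counts in its list but is not reported here.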

Additional observations from a re-analysis of the deposited data

How the results depend on the processing

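With 3 mice per group and a biological coefficient of variation of 32.1%, a member difference would have to be large to pass, and the absence of a call does not show that levels were equal. *Nlrp3* is also limited by its 8 to 83 reads. No member was called with DESeq2, RLE or upper-quartile factors, other filters, a robust fit, the replicate block, or any single library left out. *Nlrp6* was called higher in 1 further fit, which left out together DSS mouse 2 and DSS+BV mouse 1, mice picked by the levels under test, and which therefore supports nothing.

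DESeq2 called 281 genes lower and 46 higher over all genes, 2 lower and 2 higher of the other inflammasome genes, and 14 lower and 1 higher of the marker genes. With 1 library left out, edgeR called 0 to 3 genes lower and 0 to 4 higher over all genes, and 0 to 3 markers lower and 0 to 1 higher. The log2 fold changes then lay between -1.83 and -0.81 for *Nlrp3*, 0.56 and 1.15 for *Nlrp6*, 0.20 and 0.45 for *Nlrc4*, -0.039 and 0.18 for *Aim2*, 0.11 and 0.72 for *Pycard*, 0.19 and 0.62 for *Casp1*, -1.06 and -0.55 for *Casp4*, and -0.90 and -0.37 for *Gsdmd*. *Aim2* changed sign without DSS mouse 1 (-0.039). The *Nlrp3* to *Nlrp6* difference lay between -2.74 and -1.47. The *Casp4* to macrophage and monocyte difference was -0.017 with the 5 most abundant markers and -0.16 to 0.32 with 1 library left out. *Pycard* and *Casp1* to epithelium lay between -0.38 and 0.13 and between -0.25 and 0.022. The cause of these sign changes was not tested.

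Same-numbered mice of the groups had correlations of 0.267, 0.255 and -0.296 in their deviations from the group means. Mice with different numbers had correlations from -0.572 to 0.484. With 3 mice per group these values cannot decide whether the numbers pair the samples, and the labels do not say. With the replicate number as a block, 0 genes and 0 markers were called lower, and *Nlrp3* and *Casp4* had log2 fold changes of -1.32 and -0.84.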
